A study of Mus musculus with 2 samples.

Results

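Adipose tissue macrophages (ATMs) of epididymal fat that carried RNA of *Thbs1*, *Fosl2*, *Adam8* and *Tnip3* are described here in mice on control diet (CD) and in mice fed a high-fat diet (HFD) overnight. A cell was kept when it had 600 to 3500 genes and at most 10% of its unique molecular identifiers (UMIs, each standing for 1 captured RNA molecule) from mitochondrial genes. The cells of interest were chosen by their own counts of those 4 genes, which had to sum to at least 3 UMIs and to at least 0.1% of the UMIs of the cell. They numbered 482 of 4003 kept cells and are called the gated cells. CD gave 185 of them out of 2305 kept cells, and HFD gave 297 out of 1698. The levels of the 4 genes in them follow from that rule and are given only as a description, and since each gene of the same cells went into the same profile, no comparison of gated with other kept cells is a test.

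The gate joins genes with different roles. *Thbs1* encodes thrombospondin-1, a secreted matrix protein that binds CD36, CD47 and integrins and activates latent TGF-beta. *Fosl2* encodes FRA2, a subunit of the AP-1 transcription factor, *Adam8* a membrane metalloproteinase of myeloid cells, and *Tnip3* a binding partner of A20 (*Tnfaip3*) that dampens NF-kB signalling and is itself induced by it. In adipose tissue, macrophages that live there for long carry *Lyve1*, *Folr2* and *Selenop*, whereas cells newly derived from blood monocytes carry *Ccr2*, *Lyz1*, *Ear2* and *Fn1*, and stimulated myeloid cells transcribe early response genes, cytokines and prostaglandin enzymes.

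The mice were male C57/BL6 animals of 8 to 12 weeks, kept on CD with 11% of energy from fat or given HFD with 58% of energy from fat overnight. Each diet gave 1 droplet library of cells pooled from 3 mice, sorted as CD45+ F4/80+ CD11b+ with T, B, eosinophil and neutrophil markers excluded and Ly6C low or absent. According to the paper, the fat was digested with collagenase to release the cells. Whether this handling changed early response or cytokine RNA was not tested. No mouse can be told from another in the files, so the diets are compared through 1 library each, with no replicate check and no p-value. All intervals below are 95% intervals that cover counting error only.

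The CD library held 4459 barcodes with 15003119 UMIs and the HFD library 3163 barcodes with 9164686 UMIs. The gated cells held 1217391 UMIs in CD and 1594517 in HFD, that is 9.95% and 20.4% of the UMIs of kept cells. They were deeper than the other kept cells, with a median of 6093 against 4476 UMIs per cell in CD and 4678 against 3330 in HFD. When each cell was thinned to 2000 UMIs, the median number of genes was 920 in gated and 938 in other cells of CD, and 898.5 against 904 in HFD, so gated cells did not hold more genes at equal depth. The mitochondrial share was 3.46% against 4.15% in CD and 2.79% against 3.27% in HFD. The libraries shared 14 barcodes, of which 4 were kept in both and none was gated in both. Barcodes marked as likely doublets made up 1.08% of gated against 4.91% of other kept cells in CD and 1.35% against 4.35% in HFD.

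The 4 gate genes made different contributions in the 2 libraries. *Thbs1* (ENSMUSG00000040152, chr2:118111876-118127133, plus strand, GRCm38) stood at 155 UMIs per 1000000 UMIs (CPM; 134 to 179) in the gated cells of CD and at 662 CPM (622 to 703) in those of HFD. *Fosl2* (ENSMUSG00000029135, chr5:32135801-32157842, plus strand) stood at 622 CPM (578 to 668) and 511 CPM (477 to 547). *Tnip3* (ENSMUSG00000044162, chr6:65525313-65634040, plus strand) stood at 646 CPM (601 to 692) in CD and 391 CPM (361 to 423) in HFD. *Adam8* (ENSMUSG00000025473, chr7:139978932-139992562, minus strand) was the steadiest, at 179 CPM (156 to 204.5) and 198 CPM (176 to 221). The log2 ratio of HFD over CD in gated cells was 2.09 (1.87 to 2.32) for *Thbs1*, -0.72 (-0.88 to -0.57) for *Tnip3*, -0.28 (-0.43 to -0.14) for *Fosl2* and 0.14 (-0.11 to 0.40) for *Adam8*. *Thbs1* was thus the gate gene that was higher after HFD, and *Tnip3* and *Fosl2* were lower. In the other kept cells the corresponding ratio was 2.60 (2.27 to 2.93) for *Thbs1*, 0.47 (0.31 to 0.63) for *Tnip3*, 0.04 (-0.07 to 0.16) for *Fosl2* and 0.84 (0.63 to 1.05) for *Adam8*, so *Thbs1* was higher after HFD outside the gate too, from 9.26 to 56.0 CPM.

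**Figure D1:**
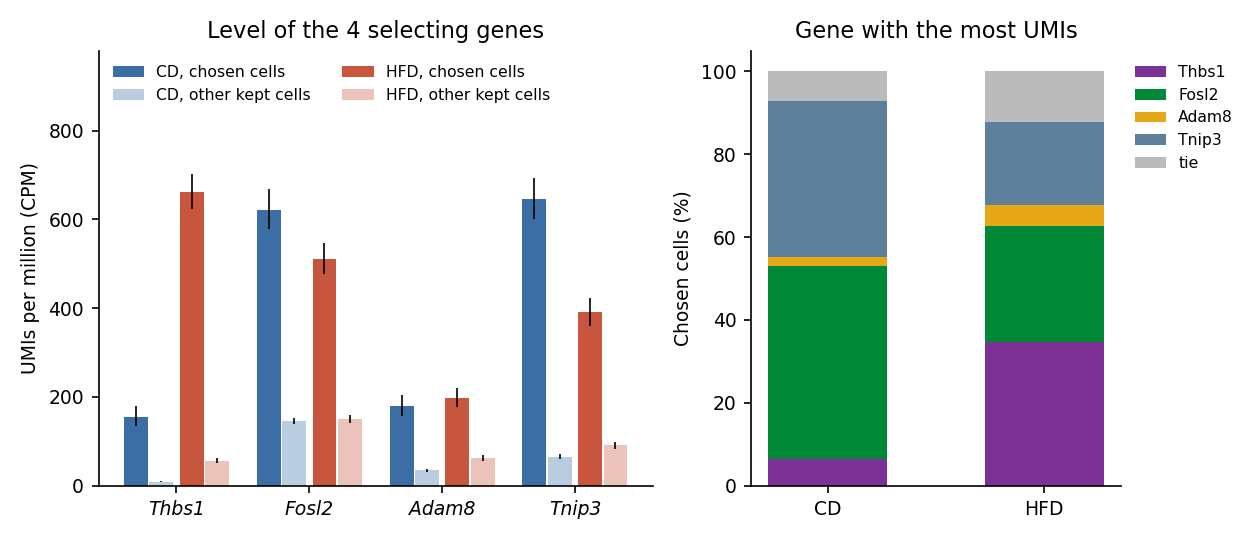
Left, levels of the 4 gate genes in CPM, in gated (chosen) and other kept cells of CD and HFD, with exact 95% Poisson intervals for counting error; right, percent of gated cells in which each gate gene had the most UMIs. *Thbs1* in gated cells goes from 155 in CD to 662 in HFD while *Tnip3* goes from 646 to 391.

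RefSeq promoter windows (GRCm38.p6, 250 bases before to 50 after the gene start) were available for *Fosl2*, *Adam8* and *Tnip3*. Those of *Fosl2* (chr5:32136222-32136521, plus strand) and *Tnip3* (chr6:65590148-65590447, plus strand) are shown because these genes mark most gated cells of CD and because *Tnip3* is a known NF-kB target. Both windows lie inside the longer gene models given above. Capitals mark letters that match GGG, any 5 bases and CC, a loose form of the NF-kB motif, on either strand.
Fosl2: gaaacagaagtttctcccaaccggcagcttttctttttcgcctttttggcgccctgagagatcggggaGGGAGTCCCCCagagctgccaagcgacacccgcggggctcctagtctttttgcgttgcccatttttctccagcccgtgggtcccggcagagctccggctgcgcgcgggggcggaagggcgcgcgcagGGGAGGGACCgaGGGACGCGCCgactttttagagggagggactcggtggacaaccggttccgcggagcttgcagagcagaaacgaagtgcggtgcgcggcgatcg
Tnip3: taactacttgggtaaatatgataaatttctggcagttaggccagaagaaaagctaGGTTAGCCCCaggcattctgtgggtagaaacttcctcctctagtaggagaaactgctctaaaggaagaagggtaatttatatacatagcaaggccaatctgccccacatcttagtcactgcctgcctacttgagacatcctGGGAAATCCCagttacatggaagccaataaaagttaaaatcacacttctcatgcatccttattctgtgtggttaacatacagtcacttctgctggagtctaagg
The window of *Tnip3* held 2 matches and that of *Fosl2* held 4, the first capital run of *Fosl2* being 2 matches that overlap, and that of *Adam8* held 0. Such a match is common, since 16686 of 32851 promoter windows of this length (50.8%) hold at least 1. The AP-1 motif TGANTCA, found in 2565 windows (7.81%), was in none of the 3.

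Most gated cells met the gate through several genes. At least 2 of the 4 genes were detected in 88.6% of the gated cells of CD and 91.9% of those of HFD, and all 4 in 10 cells of CD and 41 of HFD. The 4 genes together gave a median of 9 UMIs per gated cell in CD and 8 in HFD. The gene with the most UMIs in the cell was *Fosl2* in 86 CD cells and 83 HFD cells, and *Tnip3* in 70 and 60. It was *Thbs1* in 12 CD cells against 103 HFD cells, *Adam8* in 4 against 15, and 13 and 36 cells had a tie. Gated cells of CD were therefore mostly led by *Fosl2* or *Tnip3*, and those of HFD most often by *Thbs1*. A *Thbs1* UMI was found in 18.9% of gated cells in CD and 64.0% in HFD, against 2.74% and 12.1% of other kept cells. With every cell thinned to 2000 UMIs it was found in 12.9% and 49.6% of gated cells, against 1.06% and 7.97%.

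Each gate gene was also read in cells picked without it, by the same limits on the 3 other genes. In CD all 4 were higher in the cells so picked, with log2 ratios of 1.96 (1.57 to 2.33) for *Thbs1*, 1.17 (0.97 to 1.37) for *Fosl2*, 1.99 (1.72 to 2.25) for *Adam8* and 1.81 (1.57 to 2.04) for *Tnip3*. In HFD the ratio was 0.91 (0.72 to 1.10) for *Thbs1*, 0.85 (0.66 to 1.02) for *Fosl2* and 0.89 (0.64 to 1.14) for *Adam8*. It was 0.11 (-0.15 to 0.35) for *Tnip3*, whose 162 CPM in the picked cells of HFD did not stand apart from 151 CPM in the rest. Each gene thus went with the 3 others in CD, whereas in HFD the interval for *Tnip3* included 0. A further 371 kept cells of CD and 322 of HFD had at least 3 gate UMIs, but these made up under 0.1% of their UMIs. They count among the other kept cells. Cells just inside the limit on gate UMIs, with 3 of them, numbered 8 in CD and 23 in HFD. Just outside it, with 2 gate UMIs at 0.1% or more, stood 15 and 39 cells. In HFD the cells just inside had 5674 CPM of *Lyz1* and 1407 CPM of *Il1b* against 2099 and 850 CPM just outside, and in CD 1482 CPM of both genes against 930 and 162 CPM. *Folr2*, of resident macrophages, stood at 1425 CPM in the 8 CD cells just inside against 160 CPM in CD cells with 6 or more gate UMIs, so the few cells at the limit in CD resembled the other kept cells in this gene.

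Gated cells made up a larger share of the HFD library. They were 8.03% (6.95 to 9.21) of kept cells in CD and 17.5% (15.7 to 19.4) in HFD, a difference of 9.47 points (7.37 to 11.6). The HFD cells were the shallower ones, and depth bears on a gate of UMI counts. With each cell thinned to 2000 UMIs, which left out 242 CD and 453 HFD cells, the shares were 7.44% (6.32 to 8.63) and 16.8% (14.8 to 19.1). The share was larger in HFD at every depth, at 2.89% against 9.49% of cells under 2000 UMIs, 5.94% against 19.4% of cells with 2000 to under 5000 UMIs and 11.5% against 21.4% of cells with 5000 or more. The size of the difference rested in large part on *Thbs1*. With the gate read on *Fosl2*, *Adam8* and *Tnip3* alone the shares were 7.42% (6.38 to 8.57) and 10.9% (9.45 to 12.5), a difference of 3.48 points (1.67 to 5.34). Without *Fosl2* they were 3.30% and 9.60%, without *Adam8* 6.90% and 14.4%, and without *Tnip3* 3.601% and 11.96%. Since *Thbs1* was also higher after HFD in the cells outside the gate, a larger share of gated cells and a higher level of *Thbs1* in each cell cannot be told apart by this gate.

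**Figure D2:**
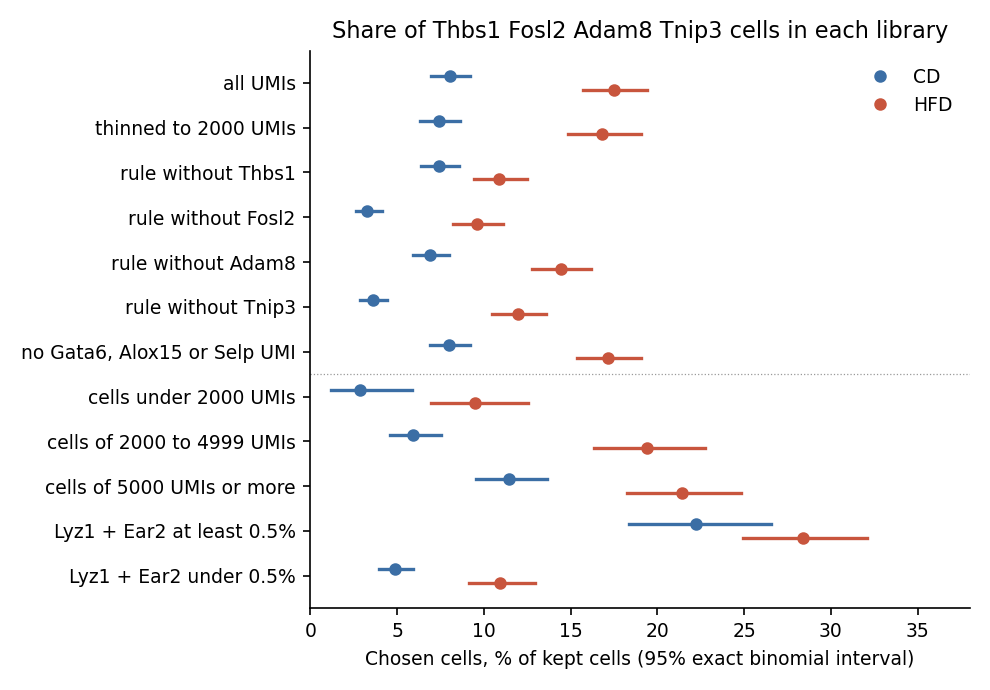
Gated (chosen) cells as a percent of kept cells in CD and HFD, for the whole gate, for thinned cells, for gates that leave out 1 gene, without cells with a peritoneal marker, and within ranges of depth and of *Lyz1* and *Ear2*; error lines are exact 95% binomial intervals. The HFD share lies above the CD share in each pair, 17.5% against 8.03% for the whole gate and 10.9% against 7.42% without *Thbs1*.

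The gated cells were spread over cells rich and poor in genes of newly recruited cells. *Lyz1* and *Ear2* together took at least 0.5% of the UMIs of 50.3% (42.8 to 57.7) of gated cells in CD and 60.9% (55.1 to 66.5) in HFD, against 15.3% and 32.5% of the other kept cells. Among kept cells above that limit, called *Lyz1* *Ear2* cells here, 22.2% (93 of 418) were gated in CD and 28.4% (181 of 637) in HFD, a difference of 6.17 points (0.76 to 11.4). Among those below it, 4.88% (92 of 1887) and 10.9% (116 of 1061) were gated, a difference of 6.06 points (4.02 to 8.26). The larger HFD share was thus seen in both kinds of cell. Other simple gates were read in the same cells. A resident gate on *Folr2* and *Lyve1* held 6.49% of gated cells in CD and 2.02% in HFD, against 62.1% and 23.1% of the other kept cells. A gate on *Trem2* and *Cd9* held 2.70% of gated and 0.991% of other kept cells in CD and 2.02% and 1.28% in HFD. A gate on *Plac8* held 0.541% and 0.613% in CD and 2.69% and 0.999% in HFD, and one on *Cd209a* and *Napsa* held 3.78% and 3.63% in CD and 2.69% and 1.78% in HFD. Gated cells were 36.4% of the cells in the *Plac8* gate in HFD (8 gated beside 14 other cells) and 7.14% in CD (1 beside 13). Among all kept cells they were 17.5% and 8.03%.

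Markers of the sorted population were present. In gated cells *Ptprc* (CD45) stood at 439 CPM in CD and 359 in HFD, *Itgam* (CD11b) at 351 and 396, *Adgre1* (F4/80) at 157 and 243, and *Csf1r* at 393 and 282, the last against 861 and 504 in other kept cells. *Cd68* stood at 189 against 368 CPM in other kept cells of CD and 235 against 278 CPM in HFD. *Fcgr1* stood at 9.04 against 46.7 CPM in CD and 18.2 against 36.3 CPM in HFD. *Ly6c2*, a gene of classical monocytes, stood at 11.5 against 11.1 CPM in CD and 18.8 (12.7 to 26.9) against 6.59 CPM (4.73 to 8.94) in HFD. Most lists of markers of other cell types were at or near 0. Of 6 T and NK cell genes none was detected in CD, and those of HFD summed to 1.25 CPM. Platelet, mast cell and mesothelial genes had no UMI in the gated cells of either library, and stromal genes summed to 4.93 CPM in CD with none in HFD. Neutrophil genes summed to 8.21 CPM in CD and 6.27 in HFD, with *Csf3r* the most abundant at 7 UMIs in each. B cell genes summed to 1.64 and 3.14 CPM, eosinophil genes to 5.75 and 3.14 CPM and endothelial genes to 4.11 and 5.64 CPM. Adipocyte genes, with *Cfd* the most abundant, summed to 41.9 against 93.3 CPM in other kept cells of CD and 38.3 against 49.4 CPM in HFD. Globin and other red cell genes summed to 55.9 CPM in gated against 945 CPM in other kept cells of CD, and to 22.0 against 17.5 CPM in HFD. A UMI of *Hbb-bs*, an RNA that ATMs do not make, was found at 2000 UMIs per cell in 7.87% of gated and 7.85% of other cells of CD and in 3.94% and 1.82% in HFD, which gauges free RNA in the droplets; its part in the other results was not tested. Cycling genes were lower in gated cells, summing to 73.1 against 224 CPM in CD and 45.2 against 77.0 in HFD.

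A few gated cells carried genes of large peritoneal macrophages. At least 1 UMI of *Gata6*, *Alox15* or *Selp*, here called a peritoneal marker, was found in 3 gated cells of CD (1.62%) and 10 of HFD (3.37%), against 1.23% and 0.999% of other kept cells. By that definition these 13 cells held all 41 and all 157 UMIs of *Alox15*, a lipoxygenase, in the gated cells of CD and HFD. They held 178 of 181 and 547 of 562 UMIs of *Saa3*, an acute phase protein, 147 of 150 and 610 of 637 of *Slpi*, a protease inhibitor, 77 of 78 and 123 of 138 of *Prg4*, a lubricating proteoglycan, and 24 of 26 and all 47 of *Cd5l*. The levels of these genes in the gated cells, such as 149 and 352 CPM of *Saa3* against 4.26 and 62.9 CPM in other kept cells, therefore describe 13 cells. *Thbs1* itself was abundant in them, at 2325 CPM (1794 to 2964) in CD and 2535 CPM (2177 to 2935) in HFD. Without every cell that had such a marker, 7.996% (182 of 2276) of CD and 17.1% (287 of 1674) of HFD cells were gated, and 17.6% and 62.7% of these had a *Thbs1* UMI.

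A gene was compared between gated and other kept cells when at least 5 UMIs were expected in the gated cells of a library, and was called higher or lower when its level differed at least 2-fold. Expected UMIs were reckoned from gated and other kept cells together, so a gene could reach the limit through its UMIs in gated cells. In CD, 296 of 9032 genes (3.28%) were called higher and 1068 (11.8%) lower. In HFD, 161 of 9340 (1.72%) were called higher and 493 (5.28%) lower. Of 8849 genes compared in both libraries, 55 (0.622%) were higher in both and 286 (3.23%) lower in both. Without the cells with a peritoneal marker, 45 of 8786 genes (0.512%) were higher in both and 318 (3.62%) lower. The median log2 ratio over all genes was -0.08 in CD and -0.02 in HFD, close to 0 in each.

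Genes were ranked for naming by a fixed rule. By the bound of the interval nearest to 0 in the weaker of the libraries, and without the 4 gate genes, the 12 highest genes were *Alox15*, *Prg4*, *Saa3*, *Slpi*, *Cd5l*, *Mmp12*, *Icam2*, *Il7r*, *Il1rn*, *Ptgs2*, *Areg* and *F5*, of which the first 5 are those of the 13 cells described above. *Icam2* too had 34 of 44 UMIs in CD and 50 of 75 in HFD in those cells. With those cells left out the 12 highest were *Mmp12*, *Il7r*, *Il1rn*, *Ptgs2*, *Areg*, *Il1b*, *Nr4a2*, *Il6*, *Dusp5*, *Nfil3*, *Dcstamp* and *Rab11fip1*. In CD, *Alox15*, *Prg4*, *Cd5l*, *Il7r* and *F5* reached the limit on expected UMIs only through their UMIs in gated cells, as did *Cd5l* in HFD. The rank of these genes is therefore a description only. *Il1b*, encoding the cytokine interleukin-1 beta, stood at 1423 CPM in gated against 467 CPM in other cells of CD and at 1464 against 693 CPM in HFD. Its log2 ratio was 1.61 (1.53 to 1.69) in CD and 1.08 (1.01 to 1.15) in HFD. *Il1b* was detected widely among gated cells. At 2000 UMIs per cell a UMI of it was found in 78.1% (71.3 to 83.9) of gated and 28.6% (26.6 to 30.7) of other cells of CD, and in 77.6% (71.9 to 82.5) and 45.5% (42.4 to 48.7) in HFD.

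**Figure D3:**
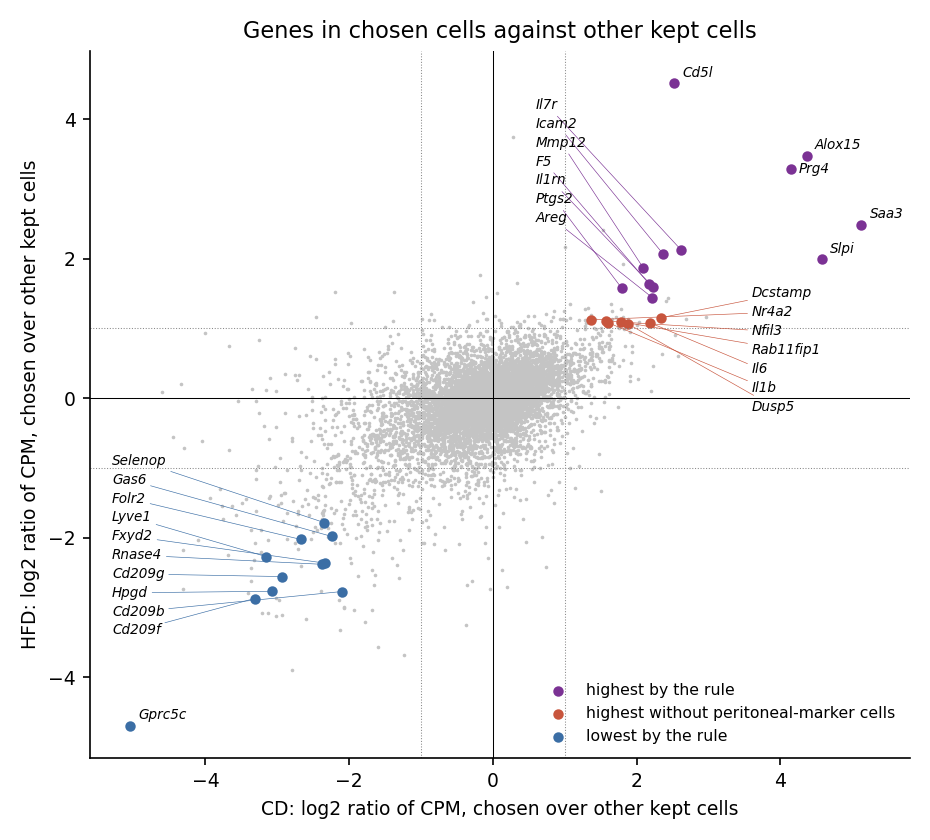
Log2 ratio of gated over other kept cells for each compared gene, CD on the x axis and HFD on the y axis, with the named genes coloured and labelled, the other genes in grey and dotted lines at 2-fold. *Il1b*, *Il1rn*, *Areg* and *Mmp12* lie in the upper right and *Folr2*, *Lyve1* and *Selenop* in the lower left; *Rac3*, with no UMI in the gated cells of HFD, is not drawn.

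*Il1rn*, the antagonist of interleukin-1, stood at 296 against 62.9 CPM in CD and 207 against 68.8 CPM in HFD, a log2 ratio of 2.23 (2.05 to 2.42) in CD and 1.59 (1.38 to 1.80) in HFD. *Il6* stood at 343 against 75.6 CPM in CD and 312 against 148 CPM in HFD, a log2 ratio of 2.18 (2.01 to 2.35) in CD and 1.08 (0.92 to 1.24) in HFD. *Areg*, which encodes an EGF receptor ligand, stood at 340.1 against 73.0 CPM in CD and 209 against 77.0 CPM in HFD, a log2 ratio of 2.22 (2.05 to 2.39) in CD and 1.44 (1.23 to 1.64) in HFD. These 3 genes shared a pattern, a gap between gated and all other kept cells that was wider in CD than in HFD. The pattern depended on the comparison cells. Against the other *Lyz1* *Ear2* cells the log2 ratios in CD and HFD were 0.93 and 1.24 for *Il1rn*, 0.77 and 0.42 for *Il6* and 0.79 and 0.72 for *Areg*. *Ptgs2*, the inducible cyclooxygenase, stood at 46.0 against 13.2 CPM in CD and 139 against 46.6 CPM in HFD, so that its level was higher in HFD both inside and outside the gate. *Il7r*, the interleukin-7 receptor, was rare, with 23 UMIs in CD and 46 in HFD in gated cells. *Mmp12*, the macrophage elastase, stood at 125 against 29.3 CPM in CD and 214 against 58.7 CPM in HFD. It was concentrated in few cells, since 21 gated cells of CD and 40 of HFD had a UMI and 5 of them held 75.7% and 71.1% of its UMIs. For *Il1b* the 5 richest cells held 10.4% and 9.89%. The nuclear receptor gene *Nr4a2* stood at 292 against 113 CPM in CD and 274 against 126 CPM in HFD, and the phosphatase gene *Dusp5* at 139 against 37.7 CPM in CD and 118 against 56.4 CPM in HFD. Without the peritoneal-marked cells the log2 ratio of *Nfil3*, a transcription factor, was 1.65 (1.35 to 1.93) in CD and 1.09 (0.85 to 1.32) in HFD, and that of *Dcstamp*, a gene of cell fusion, was 2.37 (2.03 to 2.70) in CD and 1.20 (0.84 to 1.57) in HFD.

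Genes of resident macrophages were among the lowest. The 12 lowest by the same rule were *Cd209f*, *Gprc5c*, *Hpgd*, *Cd209g*, *Fxyd2*, *Rac3*, *Rnase4*, *Lyve1*, *Folr2*, *Selenop*, *Cd209b* and *Gas6*. *Folr2*, the folate receptor beta, stood at 196 against 1243 CPM in CD and 81.5 against 332 CPM in HFD, a log2 ratio of -2.67 (-2.86 to -2.48) in CD and -2.03 (-2.29 to -1.77) in HFD. *Lyve1*, a hyaluronan receptor, stood at 37.8 against 336 CPM in CD and 23.8 against 115 CPM in HFD, and *Selenop*, a selenium carrier, at 872 against 4443 CPM in CD and 642 against 2208 CPM in HFD. The gap was present in both libraries although the other kept cells of HFD themselves held less of these RNAs. At 2000 UMIs per cell a *Folr2* UMI was found in 29.2% (22.6 to 36.5) of gated and 74.96% (72.9 to 76.9) of other cells of CD, and in 10.2% (6.80 to 14.6) and 36.2% (33.2 to 39.3) in HFD. *Cd209f* stood at 87.9 against 875 CPM in CD and 23.8 against 174 CPM in HFD. How reads shared between the related *Cd209* genes were counted was not examined. *Gprc5c* had 1 UMI in the gated cells of each library, and *Rac3* had 2 UMIs in CD and 0 in HFD.

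The list of 20 cytokine and growth factor genes also held *Ptgs2*, which encodes an enzyme. Of these 20 genes, 12 were compared in both libraries. At least 2-fold higher in gated cells of both were 6 (*Il1a*, *Il1b*, *Il1rn*, *Il6*, *Areg* and *Ptgs2*), while *Il10* was lower in both. Over all genes the corresponding shares were 0.622% and 3.23%, and this list was drawn up with earlier results of these data known. The median log2 ratio of the list was 1.12 in CD and 0.96 in HFD. *Il1a*, encoding interleukin-1 alpha, had a log2 ratio of 2.97 (2.30 to 3.63) in CD and 1.16 (0.52 to 1.77) in HFD. In CD *Il1a* reached the limit on expected UMIs only through its UMIs in gated cells, so its place in the count is a description only. Without the peritoneal-marked cells, which held 7 of its 36 HFD UMIs, it was at 0.89 (0.20 to 1.54) in HFD and did not pass, leaving 5 higher genes. *Vegfa*, an angiogenic factor, stood at 9.04 against 0.817 CPM in CD and 22.6 against 6.59 CPM in HFD, but was under the limit on UMIs in CD. *Tnf* stood at 117 against 80.5 CPM in CD and 139.9 against 78.9 CPM in HFD, with a log2 ratio of 0.55 (0.28 to 0.80) in CD and 0.82 (0.59 to 1.06) in HFD. *Il10*, an anti-inflammatory cytokine, had 4 UMIs in CD and 6 in HFD in gated cells, with a log2 ratio of -1.75 (-3.65 to -0.36) in CD and -1.83 (-3.31 to -0.64) in HFD. *Il18*, a cytokine of the interleukin-1 family, had a log2 ratio of -0.77 (-1.63 to -0.02) in CD and 0.34 (-0.19 to 0.84) in HFD, unlike *Il1a*, *Il1b* and *Il1rn*.

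Of 11 compared AP-1 genes besides *Fosl2*, 0 were at least 2-fold higher or lower in both libraries, and the median log2 ratio was -0.20 in CD and -0.16 in HFD. *Fos* stood at 3091 against 4905 CPM in CD and 3636 against 4468 CPM in HFD, and *Jun* at 537 against 1373 CPM in CD and 779.5 against 1218 CPM in HFD, both lower in gated cells. *Junb* had a log2 ratio of 0.21 (0.16 to 0.26) in CD and 0.20 (0.15 to 0.24) in HFD, and *Maff*, a small Maf factor, one of 0.80 (0.37 to 1.21) in CD and 1.10 (0.62 to 1.58) in HFD. Among 20 immediate early genes, which are transcribed soon after a stimulus, 3 were at least 2-fold higher in both libraries, namely *Nr4a2*, *Nr4a3* and *Dusp5*, beside 0.622% of all genes. *Nr4a3*, a nuclear receptor like *Nr4a2*, had a log2 ratio of 1.74 (1.45 to 2.01) in CD and 1.13 (0.83 to 1.42) in HFD, and *Nr4a1* one of 0.87 (0.79 to 0.96) in CD and 0.62 (0.54 to 0.70) in HFD. *Egr1*, a zinc finger factor, had a log2 ratio of -0.46 (-0.54 to -0.39) in CD and -0.27 (-0.34 to -0.20) in HFD, and *Ier2* and *Klf2* were below 0 in both libraries as well. Against the other *Lyz1* *Ear2* cells of the same library *Egr1* was above 0, at 0.43 in CD and 0.30 in HFD, and so was the AP-1 median, at 0.17 and 0.27. In the CD library 6 early genes passed 2-fold, beside 3.28% of all genes, the 3 further ones being *Dusp2* at 1.43, *Csrnp1* at 1.22 and *Pim1* at 1.09, which stood at 0.63, 0.85 and 0.71 in HFD. *Ier3* passed in the other direction in CD, at -1.14 (-1.32 to -0.97), beside 11.8% of all genes, and stood at -0.39 (-0.53 to -0.25) in HFD, but at 0.68 and 1.13 against the other *Lyz1* *Ear2* cells.

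Of 23 genes of the NF-kB response, 1 was at least 2-fold higher in both libraries (*Tnfaip2*), beside 0.622% of all genes, and 0 were lower. Of these, 17 were above 0 in both, beside 2604 of 8849 genes in all, and the median log2 ratio was 0.45 in CD and 0.22 in HFD. *Tnfaip3*, which encodes A20, stood at 405 against 159 CPM in CD and 310.4 against 201 CPM in HFD, a log2 ratio of 1.35 (1.20 to 1.49) in CD and 0.63 (0.48 to 0.78) in HFD. *Tnip1* and *Tnip2*, the relatives of *Tnip3*, had intervals that included 0 in both libraries. *Nfkbia*, the inhibitor of NF-kB, had a log2 ratio of 0.26 (0.19 to 0.33) in CD and 0.24 (0.18 to 0.31) in HFD.

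Chemokines were not higher as a list. Of 17 compared in both libraries, 0 were at least 2-fold higher and 4 were lower in both (beside 0.622% and 3.23% of all genes), namely *Ccl5*, *Ccl8*, *Ccl12* and *Ccl22*, the last with 0 UMIs in CD and 7 in HFD. *Cxcl2*, which attracts neutrophils, stood at 2272 against 1361 CPM in CD and 3129 against 2054 CPM in HFD. *Ccl2*, the ligand of CCR2, was lower, at 845 against 1384 CPM in CD and 785 against 935 CPM in HFD, and *Ccl8*, a chemokine of resident macrophages, stood at 99.4 against 298 CPM in CD and 8.15 against 30.7 CPM in HFD. These directions depended on the comparison cells. Against the other *Lyz1* *Ear2* cells 11 of 16 compared chemokines were above 0 in both libraries, beside 3478 of 8352 genes in all. The log2 ratios of *Ccl2* were 0.34 in CD and 0.52 in HFD. For *Ccl8* they were 1.54 and 0.50, the latter with an interval of -0.65 to 1.61, and 1 cell held 58 of its 121 UMIs in gated cells of CD.

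The resident and monocyte-derived lists stood on opposite sides. Of 23 resident genes, 0 were at least 2-fold higher and 15 lower in both libraries, beside 0.622% and 3.23% of all genes, and the median log2 ratio was -2.23 in CD and -1.43 in HFD. *C1qa*, of complement, stood at 879 against 4176 CPM in CD and 1049.8 against 2311 CPM in HFD, and *Apoe*, the lipoprotein, at 1978 against 9251 CPM in CD and 4165 against 7416 CPM in HFD. Of 18 compared monocyte-derived genes, 2 were at least 2-fold higher in both (*F10* and *Itgal*) and 0 lower, beside the same shares of all genes, with a median of 0.59 in CD and 0.42 in HFD. Without the peritoneal-marked cells *F10* was at 0.96 (0.58 to 1.33) in HFD and did not pass. *Fn1*, fibronectin, stood at 3696 against 1204 CPM in CD and 3119 against 1659.9 CPM in HFD, a log2 ratio of 1.62 (1.57 to 1.67) in CD and 0.91 (0.86 to 0.96) in HFD. *Lyz1*, a lysozyme, stood at 5716 against 2846 CPM in CD and 6783 against 5729.9 CPM in HFD, and *Ccr2*, the chemokine receptor that draws monocytes, at 835 against 530.2 CPM in CD and 688 against 602 CPM in HFD. In these lists the gated cells resembled recruited more than resident cells, and the gap was narrower in HFD, where the other kept cells held more *Lyz1* and *Fn1* and less *Folr2*.

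**Figure D4:**
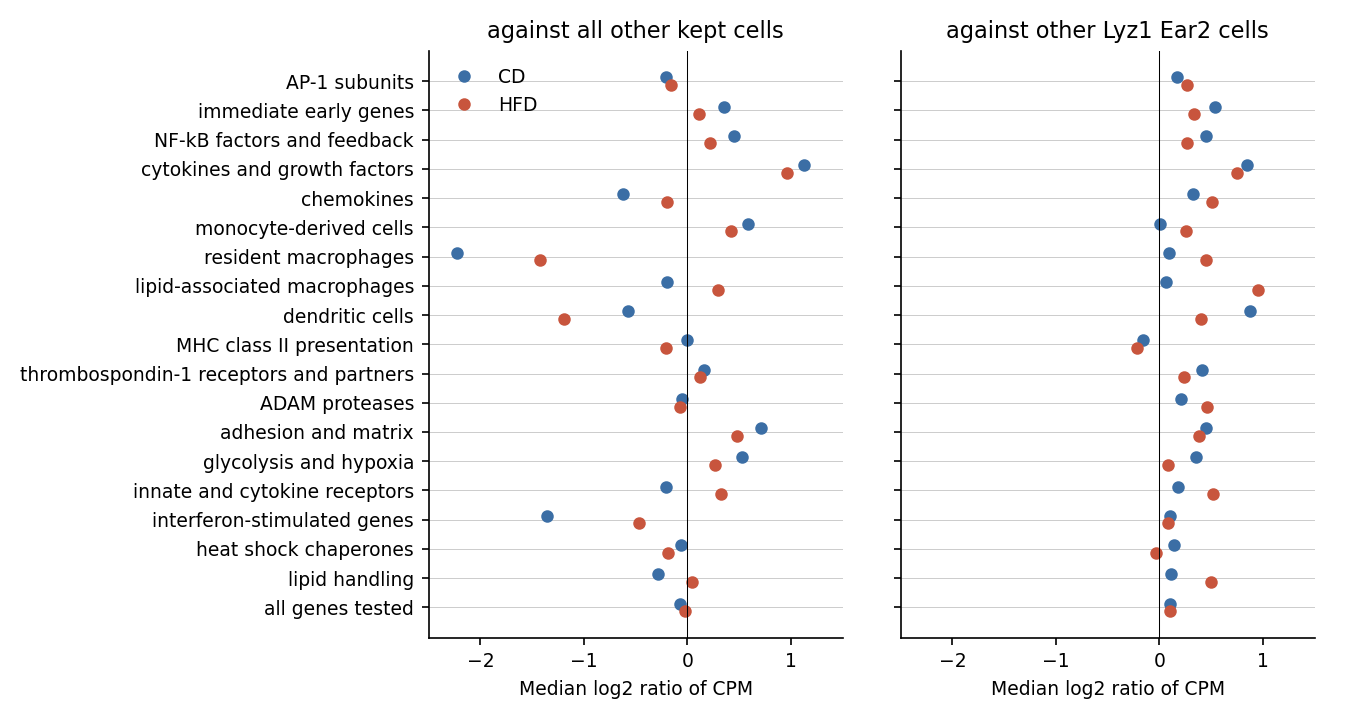
Median log2 ratio of gated cells over all other kept cells (left) and over the other *Lyz1* *Ear2* cells (right) for each gene list with at least 5 compared genes, in CD and HFD. On the left the cytokine list lies at 1.12 in CD and 0.96 in HFD and the resident list at -2.23 and -1.43, and on the right the resident list lies at 0.10 and 0.45.

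All gated cells, over or under the limit on *Lyz1* and *Ear2*, were also compared with the other *Lyz1* *Ear2* cells of the same library. The sides are unlike, since 50.3% of gated cells in CD and 60.9% in HFD passed that limit, as did every comparison cell. Differences between cells over and under the limit therefore enter these ratios. Of 8352 genes compared in both libraries, 68 (0.814%) were at least 2-fold higher in gated cells of both and 16 (0.192%) lower. Most of the difference in resident genes was absent from this comparison, the median log2 ratio of the resident list being 0.10 in CD and 0.45 in HFD. The log2 ratio was 0.73 (0.64 to 0.82) in CD and 0.76 (0.68 to 0.84) in HFD for *Il1b*, 0.93 (0.72 to 1.13) in CD and 1.24 (1.01 to 1.48) in HFD for *Il1rn* and 0.79 (0.60 to 0.98) in CD and 0.72 (0.50 to 0.93) in HFD for *Areg*. It was 0.84 and 1.29 for *Ptgs2* and 1.13 (0.23 to 2.01) in CD and 1.74 (1.02 to 2.48) in HFD for *Il7r*. *Tnf* had 1.02 (0.68 to 1.35) in CD and 1.09 (0.81 to 1.37) in HFD, and *Tnfaip3* 0.86 (0.68 to 1.03) in CD and 0.43 (0.26 to 0.59) in HFD. *Fos* and *Jun*, lower against all other kept cells, were at 0.07 and 0.23 and at 0.07 and 0.27 here. *Lyz1* was lower, at -0.75 and -0.66 here, where the comparison cells were chosen by it. The working name of these cells, activated recruited cells, was met in part. Against the *Lyz1* *Ear2* cells 3 of 13 compared genes of the cytokine list and 1 of 20 early genes were at least 2-fold higher in both libraries, beside 0.814% of all genes. The 3 cytokine genes were *Tnf*, *Osm* (1.13 in CD and 1.03 in HFD) and *Vegfa*. In CD *Vegfa* reached the limit on expected UMIs only through its UMIs in gated cells. Peritoneal-marked cells held 10 of 143 *Tnf* and 8 of 23 *Osm* UMIs in CD, and 20 of 75 *Osm* UMIs in HFD. The calls of *Tnf* and *Osm*, close to the 2-fold limit, were not read without those cells. In the same comparison 17 of 20 early genes, 21 of 23 NF-kB genes and 8 of 11 AP-1 genes were above 0 in both, beside 3478 of 8352 genes in all. The same held for 15 of 23 resident genes, so a ratio above 0 here was not particular to genes of activation. However, *Fos* and *Jun* were lower against all other kept cells, and 92 of 185 gated cells in CD and 116 of 297 in HFD were under the *Lyz1* and *Ear2* limit, so they are named here by the gate.

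Further lists gave few genes past 2-fold in both libraries, where 0.622% of all genes were higher and 3.23% lower. Of 8 compared receptors and partners of thrombospondin-1, 0 were higher or lower. *Cd36*, which binds thrombospondin-1, had a log2 ratio of -1.12 (-1.26 to -0.99) in CD and -0.40 (-0.49 to -0.31) in HFD, and *Cd47* one of 0.13 (-0.03 to 0.29) in CD and -0.05 (-0.21 to 0.11) in HFD. Of 5 compared ADAM proteases besides *Adam8*, 0 were higher and *Adam19* was lower, with a log2 ratio of -1.65 in CD and -1.16 in HFD. Against the other *Lyz1* *Ear2* cells all 9 compared partners of thrombospondin-1 were above 0 in both libraries, with 1 past 2-fold. So were all 5 compared ADAM genes, with 0 past 2-fold. In that comparison 3478 of 8352 genes in all were above 0 in both, 0.814% were at least 2-fold higher in both and 0.192% lower. Among 16 adhesion and matrix genes, *Itgax* (CD11c) and *Itgal* (CD11a), both integrin chains, were higher and *Mmp9* lower. *Itgax* stood at 73.9 against 25.7 CPM in CD and 48.9 against 23.0 CPM in HFD, and *Itgal* at 14.0 against 5.72 CPM in CD and 12.5 against 5.79 CPM in HFD. *Serpinb2*, a protease inhibitor under the limit on UMIs, had 16 of 25 UMIs in CD and 55 of 58 in HFD in the peritoneal-marked cells. *Mmp9*, a gelatinase, stood at 45.2 against 138 CPM in CD and 35.1 against 116 CPM in HFD.

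The next counts also stand beside 0.622% of all genes higher and 3.23% lower in both libraries. Of 17 glycolysis and hypoxia genes, 1 was at least 2-fold higher in both libraries, *Hilpda*, a lipid droplet protein induced in hypoxia, at 52.6 against 24.96 CPM in CD and 129 against 50.7 CPM in HFD. Of 19 innate receptors, 1 was higher, *Clec4e* (Mincle), at 154 against 38.2 CPM in CD and 197 against 95.7 CPM in HFD. Without the peritoneal-marked cells, which held 34 of its 314 HFD UMIs, *Clec4e* was at 0.96 (0.75 to 1.17) in HFD and did not pass. Of 13 genes of lipid-associated macrophages, *Mmp12* and *Cd9* were higher, but *Cd9* had 33 of 79 UMIs in CD and 56 of 114 in HFD in the peritoneal-marked cells. *Trem2*, a lipid receptor of those cells, had a log2 ratio of -1.93 (-2.52 to -1.40) in CD and -0.06 (-0.48 to 0.33) in HFD. Of 14 interferon-stimulated genes, 0 were higher and 3 lower, with a median of -1.36 in CD and -0.47 in HFD. Against the other *Lyz1* *Ear2* cells the medians of this list were 0.10 and 0.08. Of 8 genes compared there in both libraries 0 were at least 2-fold lower in both, beside 0.192% of all genes. Of 10 dendritic cell genes 5 were lower and 0 higher, with a median of -0.58 in CD and -1.20 in HFD. Against the other *Lyz1* *Ear2* cells the medians were above 0, at 0.87 and 0.40. Of 7 genes compared there in both libraries 0 were at least 2-fold lower in both, beside 0.192% of all genes. Against all other kept cells, of 9 genes of MHC class II presentation 0 passed in either direction, and of 11 heat shock genes 2 were lower. Of 13 lipid handling genes 1 was lower, *Angptl4*, and of 2 genes of alternative activation 1 was lower, *Mgl2*.

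The gated cells differed among themselves with the gene that led them. In HFD the 103 cells led by *Thbs1* held 1470.0 CPM of *Il1b* and 163 CPM of *Areg*, the 83 led by *Fosl2* held 1704 and 314 CPM, and the 60 led by *Tnip3* held 1285 and 160.0 CPM. In CD the 86 cells led by *Fosl2* held 1347 CPM of *Il1b* and 397 CPM of *Areg*, and the 70 led by *Tnip3* held 1545 and 313 CPM. *Il1b* was therefore well above the 467 and 693 CPM of other kept cells in each of these sets. *Mmp12*, held mostly by 5 cells in each library, stood at 459 CPM in CD and 85.8 CPM in HFD in cells led by *Thbs1*, at 12.1 and 213 CPM in cells led by *Fosl2* and at 192 and 485 CPM in cells led by *Tnip3*, with no common order in CD and HFD. *Folr2* stood at 270 CPM (226 to 319) in the CD cells led by *Fosl2* and at 117 CPM (89.6 to 149.9) in those led by *Tnip3*. In HFD the corresponding levels were 80.4 CPM (54.6 to 114) and 63.0 CPM (40.3 to 93.7), with intervals that overlapped. Gated cells of HFD with a *Thbs1* UMI and no peritoneal marker held 7706 CPM of *Lyz1* and 167 CPM of *Ptgs2*, against 5729 and 94.2 CPM in those without *Thbs1*. In CD the corresponding levels were 7890 and 61.5 CPM against 5353 and 43.7 CPM. The peritoneal-marked gated cells stood apart, with 465 CPM of *Lyz1* in CD and 2011 CPM in HFD but 10982 and 7605 CPM of *Fn1*.

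Within the gated cells, HFD was compared with CD. Of 8680 genes with at least 5 expected UMIs in each library, 473 (5.45%) were at least 2-fold higher in HFD and 312 (3.59%) lower, around a median log2 ratio of 0.01. Expected UMIs were reckoned from the gated cells of both diets together, so a gene could reach the limit through its UMIs in 1 diet. These counts come from 1 library a diet, and the gated cells of HFD were more often led by *Thbs1*. By the bound nearest to 0, the 10 highest genes were *Mucl1*, *Plac8*, *Hist1h2ap*, *Aldh1l1*, *Irf7*, *Clec4d*, *Plin2*, *Fcgr4*, *Cxcl13* and *Oas1a*, and the lowest included *Ccl8*, *Tnfaip8l1*, *Rrm2*, *Actg2*, *Lgi3*, *Cbr2*, *Cd209b*, *Dpys* and *Cd209f*. Among these, *Irf7* (1 UMI in CD and 28 in HFD), *Aldh1l1* (2 and 37), *Tnfaip8l1* (13 and 0) and *Dpys* (13 and 1) reached the limit only through 1 diet. The rank of such genes is a description only. *Plin2*, which coats lipid droplets, stood out by its breadth. It went from 293 CPM in CD to 1008 CPM in HFD, a log2 ratio of 1.78 (1.61 to 1.95), with a UMI in 69.2% and 89.2% of gated cells, and its ratio in other kept cells was 1.52 (1.46 to 1.58). *Mucl1* went from 7.39 CPM in CD to 201 CPM in HFD and *Plac8*, a gene of monocytes, from 14.8 CPM in CD to 169 CPM in HFD, but 5 cells held 93.8% of the HFD UMIs of *Mucl1* and 83.3% of those of *Plac8*. All *Cxcl13* UMIs were in the peritoneal-marked cells. *Clec4d*, an innate receptor, went from 17.2 CPM in CD to 94.7 CPM in HFD. *Ccl8* went from 99.4 CPM in CD to 8.15 CPM in HFD, a log2 ratio of -3.61 (-4.56 to -2.78) against -3.28 (-3.50 to -3.07) in other kept cells, and 5 cells held 61.2% of its UMIs in gated cells of CD.

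**Figure D5:**
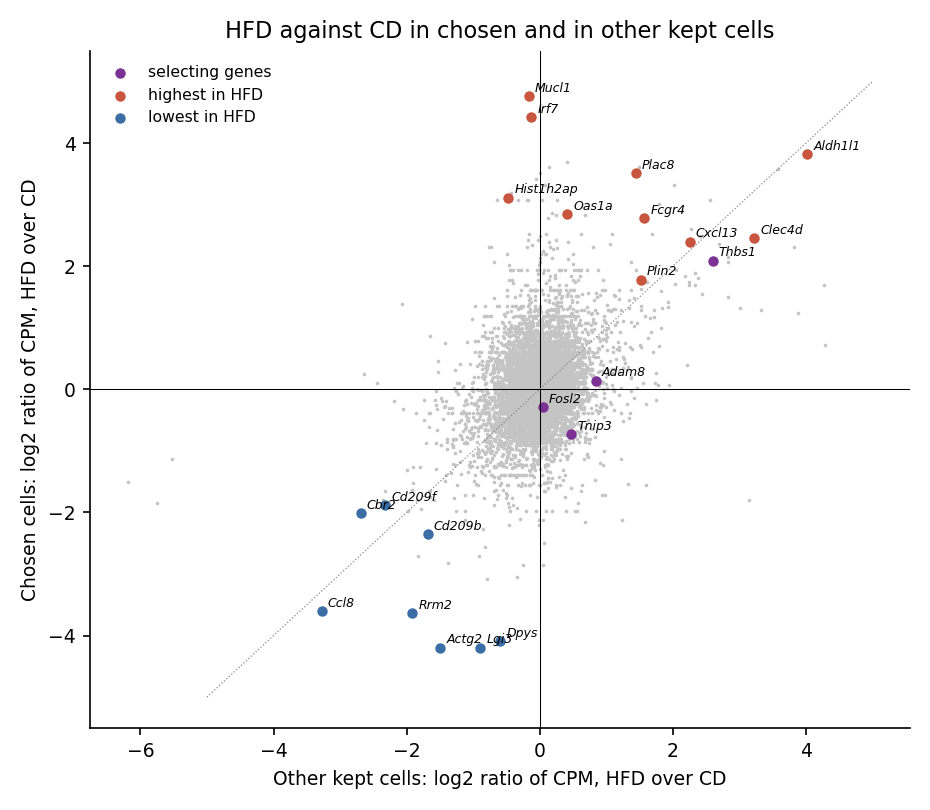
Log2 ratio of HFD over CD for each compared gene, in other kept cells on the x axis and in gated cells (chosen cells in the plot) on the y axis, with named genes coloured and labelled, the other genes in grey and a dotted line of equal ratios. *Plin2* lies at 1.78 in gated and 1.52 in other cells, whereas *Mucl1* lies at 4.76 and -0.17; *Tnfaip8l1*, with no UMI in the gated cells of HFD, is not drawn.

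Part of the lipid genes were higher in the gated cells of HFD. Of 15 compared lipid handling genes, 7 were at least 2-fold higher and 0 lower, against 5.45% and 3.59% of all genes, with a median log2 ratio of 0.90 in gated and 0.15 in other kept cells. The 7 were *Plin2*, *Abca1*, *Abcg1*, *Nr1h3*, *Angptl4*, *Pdk4* and *Soat1*. *Abca1*, a cholesterol exporter, went from 28.8 CPM in CD to 70.2 CPM in HFD, a log2 ratio of 1.29 (0.73 to 1.88) against -0.06 (-0.19 to 0.07) in other kept cells. *Nr1h3*, the sterol receptor LXR alpha, had 2 UMIs in CD and 13 in HFD. It reached the limit on expected UMIs only through its UMIs in HFD, so its place in the count is a description only. Of 14 genes of lipid-associated macrophages, 6 were higher and 0 lower, with a median of 0.86 in gated and 0.22 in other kept cells, among them *Fabp4* at 1.23 (0.89 to 1.57) and *Ctsd* at 1.24 (1.12 to 1.37). *Apoe* went from 1978 CPM in CD to 4165 CPM in HFD, a log2 ratio of 1.07 (1.01 to 1.14) in gated against -0.32 (-0.33 to -0.30) in other kept cells. Without the peritoneal-marked cells it was 0.91 (0.83 to 0.98). Whether the ratios of gated and other cells differ between diets was not tested, there being 1 library a diet.

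Cytokines of the gated cells did not move as one. Of 12 compared genes of the cytokine list, which holds the enzyme gene *Ptgs2*, 4 were at least 2-fold higher in HFD (*Il18*, *Osm*, *Vegfa* and *Ptgs2*) and 0 lower. Over all genes 5.45% were higher and 3.59% lower. The median log2 ratio of the list was -0.05. *Il1b* was level, at 0.04 (-0.05 to 0.13), while it was at 0.57 (0.51 to 0.63) in other kept cells. *Areg* had a log2 ratio of -0.70 (-0.92 to -0.49), *Il1rn* one of -0.51 (-0.73 to -0.30) and *Il6* one of -0.14 (-0.33 to 0.05), the last against 0.97 (0.83 to 1.10) in other kept cells. The narrower gap between gated and all other kept cells in HFD thus went with higher *Il1b* and *Il6* outside the gate and with lower *Areg* and *Il1rn* inside it. The remaining counts stand beside the same shares of all genes. Of 11 AP-1, 20 immediate early and 23 NF-kB genes, 0 were past 2-fold in either direction. Of 23 resident genes, 6 were lower (*Folr2*, *Cbr2*, *Gas6*, *Cd209d*, *Cd209f* and *Cd209g*) and *Apoe* was higher. Of 21 monocyte-derived genes 5 were higher and 1, *S100a4*, lower. Of 20 innate receptors 4 were higher and 0 lower, and of 11 interferon-stimulated genes 4 were higher and 0 lower.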

How the data were processed

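Droplet single-cell RNA-seq (10x 3' chemistry) was measured in 2 libraries, 1 per diet, each of cells pooled from 3 mice. The deposited matrices hold UMI counts per gene and barcode, which the authors made with Cell Ranger 3.0.2 on mm10 according to the submitters' processing notes. No value was normalized before deposit.

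Barcodes with 600 to 3500 genes and at most 10% mitochondrial UMIs were kept and the gate applied. Levels are summed UMIs of a gene per 1000000 summed UMIs of a set of cells (CPM). Poisson, binomial (Clopper-Pearson), conditional binomial and Newcombe intervals at 95% were computed with scipy 1.17.1, numpy 2.4.6 and pandas 2.3.3 in Python 3.11.15, and cover counting error only. Genes needed 5 expected UMIs in the gated cells of a library. Thinned shares are hypergeometric expectations. Doublets were marked with Scrublet in scanpy 1.11.5 by the highest scores, 0.8% per 1000 barcodes, because its own threshold had called few; they were not removed in the values given. Figures were drawn with matplotlib 3.10.9. Gene coordinates are GENCODE and promoters RefSeq. With 1 library per diet no test was made. The intervals of the log2 ratios were tested on simulated Poisson counts, which hold no clumping of RNA in single cells. The named genes were taken by the bound of the interval nearest to 0 (12 highest and lowest in both libraries, 10 for diet, and examples from each list). Members, lists and this rule were chosen with earlier results of these data known. The comparison without peritoneal-marked cells was added after seeing the data. Other gates, limits, depths and comparison cells were tried as alternatives. 1 of the lowest genes for diet is not reported here.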

Additional observations from a re-analysis of the deposited data

Results flagged for a closer look

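*Mucl1* had a log2 ratio of HFD over CD of 4.76 in gated cells and -0.17 in other kept cells, and *Hist1h2ap* one of 3.11 and -0.48, opposite directions in the 2 sets of cells. These differences were not tested, since each diet has 1 library. For *Mucl1*, 5 cells held 93.8% of the UMIs in gated cells of HFD, and for *Hist1h2ap* 32.4%.

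Barcodes outside the limits on genes and mitochondrial UMIs, which enter no comparison, also met the gate. They were 5.62% (121 of 2154) of the barcodes left out in CD and 7.03% (103 of 1465) in HFD, and 117 and 91 of them were over the mitochondrial limit.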

How the results depend on the processing

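The larger share of gated cells in HFD kept its direction under each of the alternatives tried. The difference of 9.47 points became 7.31 with the study's limits on genes, 4.50 with a gate at 0.2% of UMIs, 3.48 without *Thbs1*, 6.30 without *Fosl2* and 3.75 after thinning to 1000 UMIs. The count of genes at least 2-fold higher in both libraries, 55, became 35 with a mitochondrial limit of 5%, 25 with the gate at 0.2%, 27 without *Fosl2*, 21 without *Tnip3*, 28 after thinning to 2000 UMIs, 131 with the mean of CPM per cell, and 34 or 123 with at least 10 or 1 expected UMIs. The count of lower genes, 286, became 80 with the gate at 0.2%, 190 without *Fosl2*, 126 without *Tnip3*, 150 after thinning to 2000 UMIs, 16 against *Lyz1* *Ear2* cells, 434 with the mean of CPM per cell, and 173 or 616 with at least 10 or 1 expected UMIs. For HFD over CD the counts of 473 higher and 312 lower became 256 and 167 with 10 expected UMIs, and 1061 and 747 with 1. Centring on the median gene gave 64 higher and 277 lower, and 469 and 315 for diet.

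Log2 ratios of gated over other cells turned sign in 29 of 831 values. With the gate read without *Thbs1*, which left out the peritoneal-marked cells, *Prg4* was -3.56 in CD, *Saa3* -2.92 in CD and -4.13 in HFD, *Slpi* -4.38 and -3.64, *Cd5l* -1.72 in CD, and *Icam2* -0.33 and -0.81. Without those cells *Prg4* was -1.46, *Slpi* -1.04 and *Cd5l* -1.03 in CD, and *Saa3* -0.44 in CD and -1.24 in HFD. With the gate at 0.2%, *F5* was -0.15 in CD. Against *Lyz1* *Ear2* cells the resident genes turned: *Hpgd* 0.62 in CD and 0.11 in HFD, *Folr2* 0.029 and 0.65, *Selenop* 0.10 and 0.10, *Cd209b* 0.91 and 0.34, *Gas6* 0.48 and 0.69, *Cd209g* 0.0033, *Fxyd2* 0.10 and *Rnase4* 0.44 in CD, and *Cd209f* 0.44 and *Lyve1* 0.83 in HFD. These alternatives change which cells are compared; beyond that the cause was not tested. Of 280 diet ratios 0 turned sign and 13 moved beyond their interval. *Rac3* in HFD and *Tnfaip8l1* for diet gave no ratio, having 0 UMIs.

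With 1 library of pooled mice per diet, variation between mice is unknown. By the floor of 3 counts, a count of 0 allows up to 2.46 CPM in gated cells of CD and 1.88 CPM in HFD, and the exact 95% Poisson limit is 3.03 and 2.31 CPM.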
